A study of Mus musculus with 12 samples.

Results

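Cluster 1 of the 28W spleen was the largest of the 11 clusters that the authors deposited for that library. It was taken by its cluster number alone and held 1061 of 6481 cells, or 16.4% (exact binomial 95% interval 15.5 to 17.3), out of 20510 cells in all 3 libraries. The study sorted CD8+ T cells positive for PD-1 and CD44 from NZB/W F1 mice, for which the labels name no treatment, the F1 hybrid of the NZB and NZW strains in which lupus with nephritis arises spontaneously. The 3 libraries came from the spleen of 12-week-old mice (12W spleen), the spleen of 28-week-old mice (28W spleen) and the kidney of 28-week-old mice (28W kidney), and the methods of the study describe the mice as female. Since every cell had passed the sort gate, the clusters do not stand for all CD8+ T cells, and how many mice gave each library is not given in the sources used here. The labels list 4 samples per group, but each group's tables pool them with no map from cells to samples, so each group was 1 library and no difference below has a replicate check or a p-value. For the 28W spleen the titles and the age entry of the labels disagree, the latter giving 12 weeks, and the titles were followed. Only for kidney do the methods describe a collagenase digestion.

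IL-7 is a survival cytokine of resting T cells. Its receptor pairs the IL-7 receptor alpha chain, encoded by *Il7r*, with the common gamma chain, encoded by *Il2rg*, and signals through JAK1, JAK3 and STAT5. Naive and memory CD8+ T cells keep the alpha chain, whereas activated effector cells usually lose it. Ribosomal protein genes encode the structural proteins of the large and small ribosomal subunits, and many of their messenger RNAs begin with a stretch of pyrimidines that couples their translation to growth signals.

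Levels are given as UMIs (unique molecular identifiers, each standing for 1 captured transcript) per 1000000 UMIs of the cluster, written CPM. Brackets hold 95% intervals for counting error alone, which leave out any spread from mouse to mouse. Cluster 1 had 4437486 UMIs, or 4182 per cell, so a gene with 0 UMIs there is below a limit of 0.676 CPM (3 counts). The other clusters ranged from 1020 UMIs per cell in cluster 8 to 12208 in cluster 6. A comparison with the rest pooled the other 10 clusters (5420 cells, 27585987 UMIs). Because the clusters were drawn from the expression of these same genes, cluster 1 against the rest is a description and no test of it was made.

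The cells of cluster 1 carried CD8 T cell transcripts. *Cd8a* and *Cd8b1*, the chains of the CD8 coreceptor, stood at 539.7 and 1206 CPM, and *Cd3e*, a chain of the T cell receptor complex, at 1028 CPM. The sort genes were lower than in most clusters. *Pdcd1*, which encodes PD-1, was at 23.0 CPM [18.7 to 27.9] against 10.1 to 75.5 CPM elsewhere, the ninth of 11 levels, and *Cd44* at 37.0 CPM was the tenth. Helper and regulatory T cell genes were near 0, with *Cd4* at 0.901 CPM and *Foxp3*, the regulatory T cell factor, at 0.451 CPM, and the 7 genes of that list summed to 57.2 CPM, the lowest of the 11 clusters, of which *Izumo1r*, the folate receptor 4 gene, gave 43.0 CPM. Of 7 neutrophil granule genes 5 had 0 UMIs, of 10 B cell genes 1, of 10 myeloid genes 2, and all 6 kidney tubule genes had 0 UMIs. The summed B cell level, 178 CPM, and the summed level of gamma delta, NK and innate-like genes, 33.8 CPM, were the lowest of the 11 clusters. Haemoglobin was present at a low level, with *Hbb-bs* at 9.92 CPM against a median of 5.44 CPM in the other clusters.

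Clusters 8, 10 and 11 stood apart from the rest of the library. Cluster 8 carried red cell (40824 summed CPM) and neutrophil granule genes (23709 summed CPM), cluster 10 carried B cell genes (29178 summed CPM) and myeloid genes (7630 summed CPM), and cluster 11 had 6.64% of its UMIs from mitochondrial genes against 0.869% in cluster 1. Of the 1061 cell barcodes of cluster 1, 17 also occur in another library, beside 115 of the 6481 barcodes of the whole 28W spleen library.

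The markers tied to cluster 1 had the following gene positions in GENCODE M21 (GRCm38). *Il7r* lies at chr15:9505788-9530176 and *Socs3*, an inhibitor of cytokine signalling, at chr11:117966079-117970047, both on the minus strand. *Arl4c*, a small GTPase of the ARF-like family, lies at chr1:88673125-88702221 on the minus strand. *Igfbp4*, an insulin-like growth factor binding protein, lies at chr11:99041244-99054392 and *Tnfrsf25*, the death receptor that binds the TNF family ligand TL1A, at chr4:152115934-152120119, both on the plus strand.

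*Il7r* was at 638 CPM [615 to 662] in cluster 1, and the other clusters ran from 54.0 CPM in cluster 6 over a median of 363 CPM to 759.9 CPM [732 to 789] in cluster 4. Cluster 1 was thus the second of 11, below cluster 4 with no overlap of the intervals and above cluster 5 at 520.6 CPM [497 to 545]. Clusters 3, 6, 7 and 10 made up the low end, between 54.0 and 126 CPM. *Arl4c* was highest in cluster 1, at 255 CPM [241 to 271], but cluster 2 at 240.7 CPM was at the edge of that interval. *Socs3* at 94.6 CPM [85.8 to 104] and *Tnfrsf25* at 32.2 CPM [27.2 to 38.0] were also highest there. For *Socs3*, cluster 4 at 86.2 CPM [76.8 to 96.4] and cluster 9 at 82.4 CPM [57.7 to 114] were within counting error of cluster 1. For *Tnfrsf25*, cluster 8 at 26.1 CPM [12.5 to 47.9], cluster 4 at 25.0 CPM [20.1 to 30.8] and cluster 2 at 24.0 CPM [19.8 to 28.9] overlapped cluster 1. The *Tnfrsf25* intervals of clusters 9 and 11 did so as well. *Igfbp4* did not set cluster 1 apart: at 30.4 CPM [25.5 to 36.0] it lay below cluster 8 at 52.1 CPM and beside cluster 6 at 30.7 CPM. Against the other clusters pooled, *Il7r* was 2.12-fold higher [2.03 to 2.21], *Igfbp4* 2.12-fold [1.73 to 2.59], *Tnfrsf25* 1.95-fold [1.60 to 2.35], *Socs3* 1.81-fold [1.62 to 2.02] and *Arl4c* 1.77-fold [1.66 to 1.89].

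**Figure D1:**
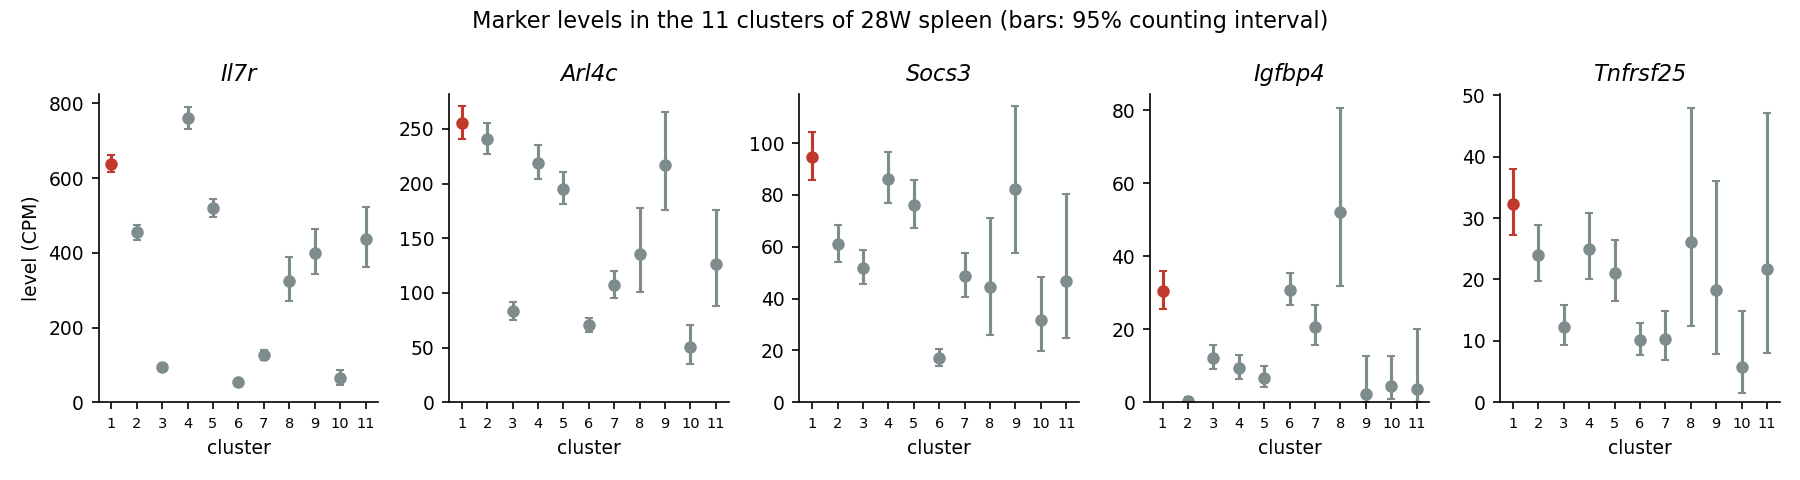
Level of the 5 markers (CPM, linear axes from 0) in each of the 11 clusters of 28W spleen, with 95% counting intervals and cluster 1 in red. *Arl4c*, *Socs3* and *Tnfrsf25* are highest in cluster 1, *Il7r* is higher in cluster 4 (759.9 against 638 CPM), and *Igfbp4* is higher in cluster 8 (52.1 against 30.4 CPM).

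Other genes of the IL-7 receptor pathway showed no common direction. Of 17 genes in this list, 16 passed the filter of 10 CPM on either side. Of these, 3 were at least 1.5-fold higher than in the other clusters (*Il7r*, *Socs3* and *Cish*) and 0 at least 1.5-fold lower. *Il7r* and *Socs3* are markers tied to cluster 1, so their higher calls add nothing about the pathway, and apart from them only *Cish* was higher. Among all 7207 genes tested in this comparison, 0.416% were at least 1.5-fold higher and 14.1% lower. The list's median log2 ratio was -0.19, against -0.27 for all genes tested. All log2 ratios are of CPM + 1. *Cish*, another cytokine signalling inhibitor that STAT5 induces, was at 16.5 CPM [12.9 to 20.7] against 8.27 CPM [7.23 to 9.41]. *Bcl2*, an inhibitor of cell death, was highest in cluster 1 at 97.8 CPM, with the other clusters from 41.3 to 93.4 CPM, so its lead over the next cluster was small. The list of cell survival genes as a whole was not higher. Of its 15 tested genes 1 was above a log2 ratio of 0, 0 were at least 1.5-fold higher and 2 lower, with a median of -0.33. Its summed level, 2000 CPM, was the ninth of 11. The shared chain *Il2rg* was at 657 CPM, close to the median of 652 CPM over the other clusters, and *Jak3* at 66.5 CPM, *Stat5a* at 23.2 CPM and *Stat5b* at 43.0 CPM were at or below the medians of the other clusters.

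Other cytokine receptors were mixed. *Il18r1*, a subunit of the IL-18 receptor, was at 69.0 CPM in cluster 1 against 44.4 CPM in the rest (1.55-fold [1.36 to 1.76]), but 4 of the other clusters were higher, up to 89.6 CPM in cluster 2. *Ifngr1*, the ligand-binding chain of the interferon gamma receptor, was at 215 CPM against 152 CPM. *Il10ra*, the IL-10 receptor, was lowest in cluster 1, at 30.0 CPM [25.1 to 35.5] with the others from 45.0 to 188 CPM. In this list 1 of 16 tested genes was higher and 2 were lower by 1.5-fold. In the TNF receptor family and its ligands, 1 of 12 tested genes was higher (*Tnfrsf25*) and 1 lower (*Tnfrsf9*, the costimulatory receptor 4-1BB, at 2.93 CPM with 153 CPM in cluster 6). Of all 7207 genes tested, 0.416% were higher and 14.1% lower, and the lower calls of neither list exceeded that share.

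Ribosomal protein genes took a larger share of the UMIs in cluster 1 than in any other cluster of the library. The 79 genes gave 42.3% of its UMIs [42.2 to 42.3], and the other clusters ran from 11.1% in cluster 11 to 40.2% in cluster 7, which was nearest. Cluster 1 also had the lowest mitochondrial share of the 11 clusters, at 0.869%, and cluster 11 with the lowest ribosomal share had the highest. Against the other clusters pooled the ribosomal share was 8.32 percentage points higher, 3.77 points from the 47 large subunit genes and 4.54 points from the 32 small subunit genes. The median log2 ratios were 0.27 for the large and 0.32 for the small subunit genes. The excess was spread over many genes and small in each: 74 of 79 were above a log2 ratio of 0, and 1, *Rps27*, reached 1.5-fold.

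Among the genes with the highest ratios were *Rps27*, *Rps24*, *Rpl30* and *Rps19*. *Rps27* was at 12404 CPM in cluster 1 against 2839 to 11507 CPM in the others, and *Rps24* at 14850 CPM against 2622 to 12488 CPM, so cluster 1 lay above every other cluster for both. Their folds over the rest were 1.53 [1.52 to 1.55] and 1.48. At the other end, *Rpl23a* was at 524 CPM in cluster 1 against 574 CPM, while *Rpl28*, *Rpl31* and *Rpl41* had log2 ratios from -0.04 to -0.02. *Rps27rt*, a processed copy of *Rps27*, also appeared among the higher genes (83.4 against 55.0 CPM), but reads from *Rps27* and its copy can be split between them by the counting, so this value is uncertain.

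**Figure D2:**
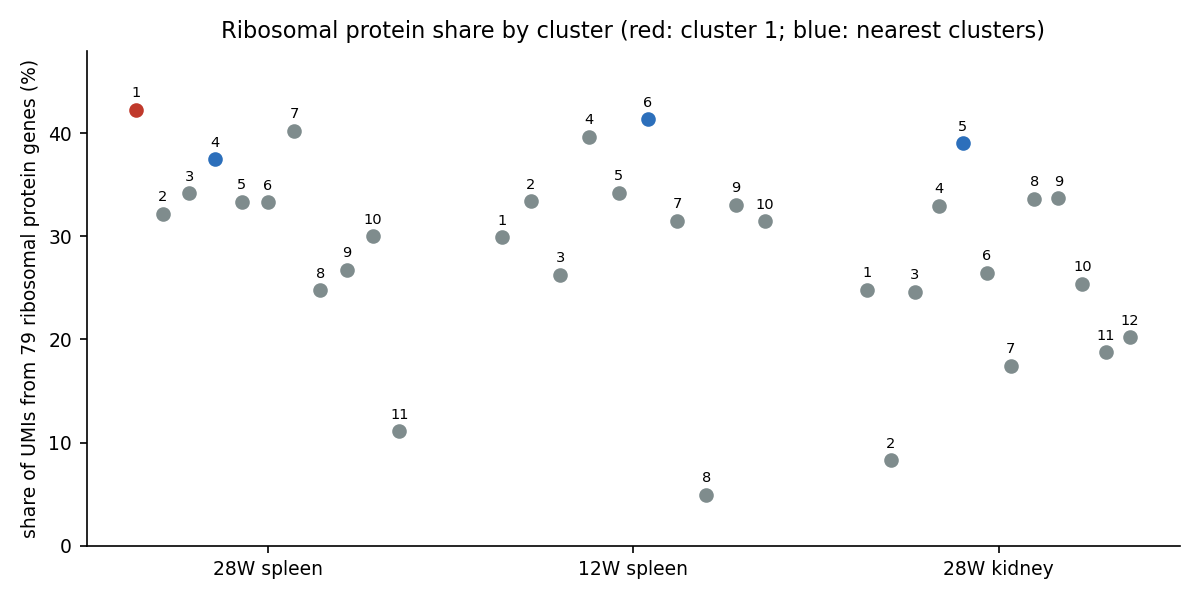
Share of UMIs from 79 ribosomal protein genes (%, from 0) in every cluster of the 3 libraries, labelled by cluster number, with cluster 1 of 28W spleen in red and the cluster of each library nearest to it in overall profile in blue. Cluster 1 is the highest of all at 42.3%, with 12W spleen cluster 6 at 41.3%, 28W spleen cluster 7 at 40.2% and 28W kidney cluster 5 at 39.0%.

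The share of UMIs is a closed total, so a larger ribosomal share goes with a lower CPM of other genes. The median log2 ratio of all genes tested was -0.27, and when ribosomal protein, mitochondrial and T cell receptor genes were left out of the total it was -0.08. Under that total 103 genes were at least 1.5-fold higher and 530 lower, and with the median gene ratio set to 1 the counts were 175 and 378, in place of 30 and 1016. Higher genes made up 2.87% of the calls in the first case, 16.3% with the reduced total and 31.6% with the median scaling. The median of the ribosomal protein genes was above 0 in all of these settings, at 0.30, 0.50 and 0.57.

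Start-site sequences are shown for ribosomal protein genes from both ends of this ranking, for the elongation factor gene *Eef1a1* and for *Il7r*, because the pyrimidine stretch of such messages begins at the start of transcription. RefSeq (GRCm38.p6) gave a start site for 58 of the 79 genes. Each line gives 20 bases before and 10 from the start site, 5′ to 3′ on the gene's strand, with capitals for an unbroken run of at least 8 C or T bases between 5 bases before and 10 after the start.
*Rps27* (chr3:90213639-90213668, minus strand): acaggatttccgctttcgCTCCTTTCCggc
*Rps24* (chr14:24490658-24490687, plus strand): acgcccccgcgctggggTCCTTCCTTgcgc
*Rps19* (chr7:24884572-24884601, plus strand): agcactccgaaatctcgcgagactcgacgc
*Rpl28* (chr7:4792945-4792974, plus strand): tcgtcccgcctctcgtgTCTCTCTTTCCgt
*Rpl31* (chr1:39367831-39367860, plus strand): cacctcttcctcctcgcctccccgtgaccc
*Rpl41* (chr10:128549159-128549188, minus strand): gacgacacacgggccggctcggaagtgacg
*Eef1a1* (chr9:78481715-78481744, minus strand): cgtgtgctggctccgCCCTCTTCCCgaggg
*Il7r* (chr15:9529867-9529896, minus strand): tgtgatgttcatagttccctgtctgtggtt
Such a run lay at 20 of 68 start sites of ribosomal protein genes (29.4% [19.0 to 41.7]) and at 1475 of 32851 start sites in the whole table (4.49%). On the opposite strand, read as a run of A or G bases in the same window, the shares were 1.47% and 5.57%. The run at the annotated start did not sort the genes by their ratio in cluster 1. The 20 genes with a run had a median log2 ratio of 0.29, from -0.04 to 0.62. The 38 without had a median of 0.29, from -0.03 to 0.52. The start sites are annotated and were not measured here, and *Rpl31*, with a run of 7 bases, fell below the cut of 8. Whether messages of the 38 genes begin with a pyrimidine stretch was not tested. For *Rps24* and *Rps19* the first of 2 and of 3 listed start sites is shown, and the other sites of both genes hold no such run. The run is present in *Rps27* and at the shown site of *Rps24*, at the top of the ranking, and in *Rpl28*, near its bottom.

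Translation factors, which act with the ribosome, differed less. Of 23 genes 0 were at least 1.5-fold higher and 1 was lower, where 14.1% of all genes tested were lower. Their median log2 ratio was 0.06. *Tpt1*, a translationally controlled growth protein, was highest in cluster 1 at 6005 CPM against 1560 to 5589 CPM in the others, and *Eef1a1*, the main elongation factor, was second at 11259 CPM.

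The genes with the highest ratios of those with at least 50 CPM were *Il7r*, *Socs3*, *Arl4c*, *Dtx1*, *Sit1*, *Il18r1*, *Rabac1*, *Rps27rt*, *Klk8*, *Ifngr1*, *Klf2*, *Tdrp*, *Tsc22d3*, *Vkorc1* and *Cxcr3*. *Dtx1*, a Deltex ubiquitin ligase of the Notch pathway, was at 171 CPM, second to cluster 5 at 173 CPM. *Klf2*, the transcription factor that maintains *S1pr1* in resting T cells, was at 1518 CPM, with the others from 371 CPM in cluster 6 to 2740 CPM in cluster 9. *Tsc22d3*, a glucocorticoid-induced leucine zipper gene, was at 505 CPM against 357 CPM in the rest, and *Cxcr3*, a chemokine receptor of effector and memory T cells, at 226 CPM against 162 CPM. Of these 15 genes, *Arl4c*, *Rabac1*, *Rps27rt*, *Klk8*, *Socs3*, *Tsc22d3* and *Vkorc1* had their highest level in cluster 1.

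The 15 lowest genes all had their highest level in cluster 8, cluster 10 or the dividing cells of cluster 6. They were *S100a8*, *S100a9*, *Ngp*, *Jchain*, *Cd74*, *Hbb-bs*, *Hba-a1*, *Hbb-bt*, *H2-Aa*, *Pclaf*, *Ube2c*, *Birc5*, *H2-Ab1*, *H2-Eb1* and *Stmn1*. *S100a8*, a neutrophil granule protein gene, had 0 UMIs in cluster 1 and 103 CPM in the rest, at least 152-fold lower against the limit of 3 counts. *Pclaf*, a replication factor, was at 3.83 CPM against 402 CPM in cluster 6. Of 16 cell cycle genes 14 were at least 1.5-fold lower than in the rest, where 14.1% of all genes tested were lower. Without clusters 6, 8, 10 and 11 this held for 3 of 10, where 12.7% of all genes tested were lower. The cell cycle genes that dropped out had passed the filter of 10 CPM only through the clusters left out, so their lower call was nearly fixed in advance. Cluster 6 held 9221 summed CPM of the list and cluster 1 held 1964 CPM. In that narrower comparison *Pclaf*, *Hbb-bs*, *Hba-a1* and *Hbb-bt* turned to log2 ratios of 0.12, 0.31, 0.40 and 0.03.

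**Figure D3:**
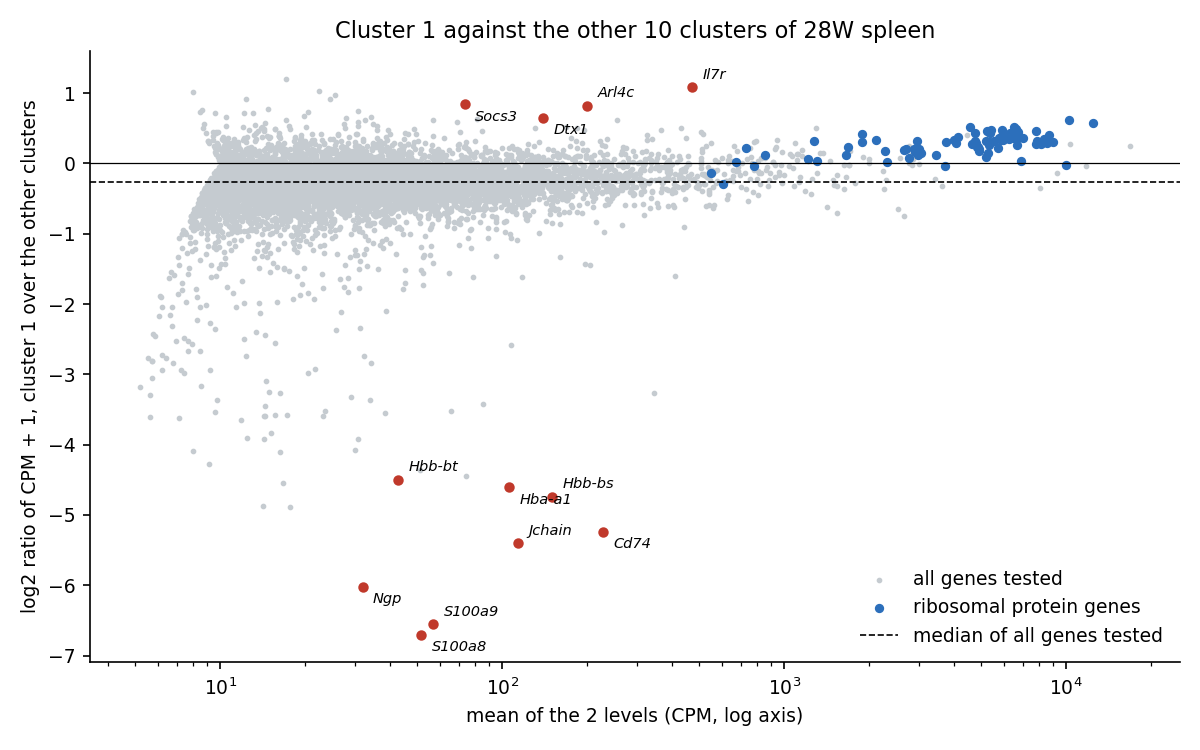
Each point is 1 of the 7207 genes tested, by the mean of its levels in cluster 1 and the other clusters (CPM, log axis) and its log2 ratio of CPM + 1, with ribosomal protein genes in blue and the leading genes of each direction in red. The dashed line is the median of all genes, -0.27, and 78 of the 79 ribosomal protein genes lie above it.

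Against clusters 2, 3, 4, 5, 7 and 9 (4054 cells), the comparison without the clusters that stood apart or divided, which was added after the values were seen, 27 of 7081 genes (0.381%) were at least 1.5-fold higher and 897 (12.7%) lower, with a median of -0.25. With the median gene ratio set to 1, higher genes made up 38.2% of these calls in place of 2.92%. Genes of ribosome assembly and growth then stood beside the markers. *Srm*, which makes spermidine, was highest of the ranked genes at 50.5 CPM [44.1 to 57.5] against 29.1 CPM [26.7 to 31.5]. *Fbl*, the fibrillarin methyltransferase of ribosomal RNA, was at 203 CPM against 136 CPM, and *Nme1*, *Eef1e1*, *C1qbp*, *Mrto4*, *Lsm2*, *Hspe1* and *Snhg12* were 1.36-fold to 1.46-fold higher. *Il7r* was 1.65-fold [1.58 to 1.72], *Arl4c* 1.49-fold and *Socs3* 1.46-fold higher, while *Igfbp4* was 3.48-fold higher (30.4 against 8.74 CPM). Of 15 tested ribosome biogenesis genes 12 were above a log2 ratio of 0, with a median of 0.21, but 1 (*Srm*) reached 1.5-fold. With cluster 6 and the set-apart clusters included the same list had a median of -0.35, and cluster 6 held 3806 summed CPM of these genes against 1290 CPM in cluster 1.

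In the same comparison, transcription factors of effector differentiation and inhibitory receptors were lower in cluster 1. The lowest genes with at least 50 CPM were *Myb*, *Ikzf2*, *Ift80*, *Ctla2a*, *Eomes*, *Mpp1*, *Il10ra*, *Tox*, *Smc4*, *Izumo1r*, *Ccl4*, *Txndc12*, *Lag3*, *Ifi214* and *Tm6sf1*. *Myb*, a transcription factor of stem-like T cells, was at 7.66 CPM [5.31 to 10.7] in cluster 1, the lowest of all 11 clusters, against 61.5 CPM [58.1 to 65.1], with 177 CPM in cluster 3. *Ikzf2*, which encodes Helios, was likewise lowest, at 7.66 CPM against 57.2 CPM [53.9 to 60.6]. Of 12 tested effector transcription factors 7 were at least 1.5-fold lower and 0 higher (median -0.90), where 12.7% of all genes tested were lower. Among the 7 were *Eomes* at 23.7 against 72.2 CPM and *Tox*, the factor linked to chronic stimulation, at 31.5 against 86.8 CPM. *Tbx21*, which encodes T-bet, was not among them, with 42.1 CPM on both sides.

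Inhibitory receptors were lower as a list. Of 8 tested genes 6 were at least 1.5-fold lower and 0 higher, with a median of -1.05. Over all genes tested in this comparison 12.7% were lower, with a median of -0.25. *Lag3* was at 57.0 CPM [50.2 to 64.5] against 133 CPM [128 to 138], *Ctla4* at 53.0 against 117 CPM, *Tigit* at 6.99 against 28.2 CPM and *Cd160* at 8.34 against 28.8 CPM. *Tigit* and *Cd160* passed the filter of 10 CPM only through the other clusters, so for them a lower level was nearly fixed in advance. *Pdcd1* itself was at 23.0 against 37.4 CPM, 0.615-fold [0.495 to 0.757]. *Havcr2*, which encodes TIM-3, had 0 UMIs in cluster 1, as in clusters 3, 4, 5, 7, 8 and 11, and was at 20.2 CPM in cluster 10.

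Naive and memory genes were not higher in cluster 1. Of 16 genes 7 were at least 1.5-fold lower than in clusters 2, 3, 4, 5, 7 and 9 and 0 higher, with a median of -0.49. Over all genes tested there, 12.7% were lower, with a median of -0.25. *Id3*, a transcriptional regulator of memory precursors, was at 69.2 against 141 CPM, *Satb1* at 49.8 against 93.5 CPM and *Bach2* at 11.3 against 24.1 CPM. *Tcf7* and *Lef1*, the factors of naive and stem-like T cells, were at 0.739-fold and 0.733-fold. Of 17 effector and cytotoxic genes 5 were lower than in the same 6 clusters and 0 higher, with a median of -0.51. Against all the other clusters 4 were lower and 0 higher, where 14.1% of all genes tested were lower. The summed level of this list, 7151 CPM, was the third of 11, below clusters 9 (22542 CPM) and 2 (16364 CPM). It was 1.17-fold [1.16 to 1.18] that of all the other clusters and 0.964-fold [0.953 to 0.976] that of the 6 clusters. *Ccl5*, a chemokine made by memory and effector T cells, was at 5054 CPM, with a median of 2424 CPM over the other clusters, and *Nkg7* at 768 CPM and *Gzmk* at 118 CPM were close to the medians of the other clusters (645 and 109 CPM). *Gzmb*, which encodes granzyme B, was near the floor, at 1.80 CPM [0.778 to 3.55] against 28.5 CPM. It passed the filter of 10 CPM only through the other clusters, so its lower level was nearly fixed in advance. The chemokine receptor gene *Ccr2* was at 1.35 CPM against 9.96 CPM.

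The cluster of the same library nearest to cluster 1 was cluster 4 (853 cells), with a Pearson r of 0.81 over the 2973 genes with at least 50 CPM in any library, taken on the log2 ratio of each cluster to its library. Clusters 2 (0.76) and 5 (0.74) followed. The order was the same without ribosomal protein genes, with r at 0.82, 0.78 and 0.75. Clusters of 1 library share its preparation and depth, and the correlation is a description.

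Interferon-stimulated genes were lower in cluster 1 than in cluster 4. All 19 genes of this list were at least 1.5-fold lower in cluster 1, with a median log2 ratio of -1.39, while among all 7009 genes tested 11.4% were lower and 0.585% higher, with a median of -0.16. Higher genes made up 4.88% of the calls, and 24.9% with the median gene ratio set to 1. The list summed to 3354 CPM [3301 to 3409] in cluster 1 and to 7198 CPM [7110 to 7286] in cluster 4, the highest of the library, and to 2229 CPM in cluster 6, the lowest. *Rsad2*, an antiviral enzyme, was at 8.11 CPM [5.68 to 11.2] in cluster 1 and at 82.3 CPM [73.1 to 92.3] in cluster 4. *Mx1*, an antiviral GTPase, was at 7.66 against 71.0 CPM, and *Isg15*, a ubiquitin-like modifier, at 118 against 513 CPM. *Rsad2* and *Mx1* passed the filter of 10 CPM only through cluster 4, so for them a lower level was nearly fixed in advance. *Ifit3* was at 63.8 against 345 CPM, and reads may be split between it and the near copy *Ifit3b* (14.4 against 80.0 CPM). *Cmpk2*, which was not in the list but was among the 5 lowest genes, stood at 20.3 against 93.2 CPM. *Slfn1* was the least different gene of the list, with 0.651 times the level of cluster 4 (301 CPM). The sum of cluster 1 was the seventh of 11, above the dividing cluster 6 and clusters 8, 10 and 11, and the lowest beside clusters 2, 3, 4, 5, 7 and 9 (3441 to 7198 CPM). Against these 6 clusters pooled, 11 of 19 genes were at least 1.5-fold lower and 0 higher, where 12.7% of all genes tested were lower. The median was -0.59 beside -0.25 over all genes tested, and the summed fold was 0.700 [0.688 to 0.712]. Against all the other clusters 5 of 19 were lower and 0 higher, where 14.1% of all genes tested were lower.

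**Figure D4:**
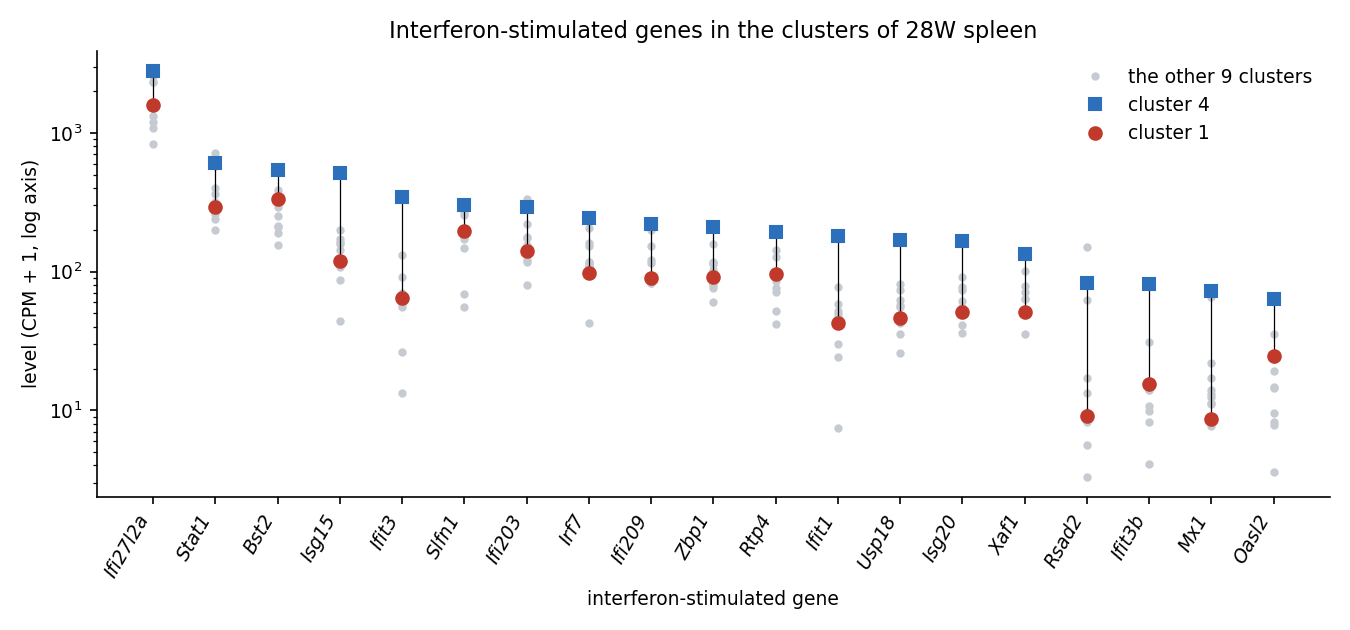
Level (CPM + 1, log axis) of the 19 interferon-stimulated genes in cluster 1 (red circles), cluster 4 (blue squares) and the other 9 clusters of 28W spleen (grey). Every gene is lower in cluster 1 than in cluster 4, from *Slfn1* (0.651-fold) to *Rsad2* (8.11 against 82.3 CPM), and cluster 1 lies within the range of the other clusters.

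Among the other lists, *Itgb1*, the integrin chain CD29, was at 374 CPM [356 to 393] in cluster 1 and at 660.2 CPM [634 to 687] in cluster 4, and *Lag3* (57.0 against 124 CPM), *Ctla4* (53.0 against 119.6 CPM) and *Ifng* (69.6 against 115 CPM) were lower too. Of 8 tested inhibitory receptors 4, and of 11 tested effector transcription factors 6, were at least 1.5-fold lower, with 0 higher in each list. Over all genes tested against cluster 4, 11.4% were lower. The highest genes with at least 50 CPM were *Srm* (50.5 against 32.9 CPM), *Nme1*, *Ptp4a3*, *Fmc1* and *Ndufv1*, of which *Srm* alone passed 1.5-fold. *Igfbp4*, at a lower level, was 3.28-fold higher [2.23 to 4.96]. *Il7r* was lower in cluster 1 under each of the totals used, by 0.25 on the log2 scale of all UMIs, while 78 of 79 ribosomal protein genes were above 0 (median 0.16). The ratio of *Socs3*, 1.10-fold [0.945 to 1.28], did not exceed its counting error.

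Cluster numbers are not matched across libraries, so the cluster of each other library most like cluster 1 was found from the same correlation. These were 12W spleen cluster 6 (503 cells, r = 0.82) and 28W kidney cluster 5 (631 cells, r = 0.80), and both also ranked first without ribosomal protein genes. By correlation of log2 CPM, and by the level of *Il7r*, 12W spleen cluster 2 (1118 cells) came first instead, so it is given too. These clusters were chosen for their likeness, hence shared features are descriptions. Age and library, or organ, digestion and library, cannot be told apart in these differences.

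Beside 12W spleen cluster 6, effector genes were higher in cluster 1. Of 6915 genes tested 414 (5.99%) were at least 1.5-fold higher in cluster 1 and 502 (7.26%) lower, with a median of -0.07. Higher genes made up 45.2% of the calls, and 56.8% with the median gene ratio set to 1. The highest with at least 50 CPM were *Ifng*, *Gzmk*, *S100a4*, *S100a6* and *Serpina3g*. *Ifng*, which encodes interferon gamma, was at 69.6 CPM (309 UMIs) against 1.07 CPM (2 UMIs), a ratio of 65.0 [17.8 to 539]. *Gzmk*, a granzyme of memory-like cells, was at 118 against 4.82 CPM, *Ccl5* at 5054 against 541 CPM and *Itgb1* at 374 against 78.3 CPM. In the list of integrins and CD29-associated genes 11 of 16 tested genes were higher and 0 lower (median 0.99), in the effector and cytotoxic list 9 of 15 were higher and 2 lower, and of 7 inhibitory receptors 4 were higher and 1 lower (*Cd160*). *Pdcd1* was at 23.0 CPM in cluster 1 and 5.36 CPM [2.57 to 9.86] in the 12W cluster. *Ifng*, *Gzmk* and *Pdcd1* passed the filter of 10 CPM only through cluster 1. For such genes a higher level was nearly fixed in advance.

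Naive genes went the other way, with 8 of 16 lower and 2 higher in cluster 1, beside 7.26% and 5.99% of all genes tested. *Ccr9*, a gut-homing chemokine receptor, was at 6.31 against 68.1 CPM, *Lef1* at 143 against 434 CPM, *Satb1* at 49.8 against 183 CPM, *Ccr7*, the lymph node homing receptor, at 174 against 437 CPM, and *Igfbp4* at 30.4 against 66.5 CPM. *Rgcc*, *Sesn1*, *Ephx1* and *Ppic* completed the 5 lowest genes. The ribosomal share was nearly equal, 42.3% against 41.3%, and the 79 ribosomal protein genes had a median log2 ratio of -0.0043, with 36 above 0. Under the reduced total and the median scaling this median turned to 0.01 and 0.07, with 45 and 58 genes above 0. *Il7r* was 1.34-fold higher in cluster 1 (638 against 477 CPM) and *Socs3* 3.53-fold (94.6 against 26.8 CPM).

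Beside 12W spleen cluster 2, effector genes were lower in cluster 1 and *Il7r* differed little. *Il7r* was close, at 638 CPM [615 to 662] against 684.5 CPM [659 to 711], and the sign of this difference changed with the total used (log2 ratios of -0.10 with all UMIs, 0.10 with the reduced total and 0.18 with the median scaling). *Tnfrsf25* was at 32.2 CPM [27.2 to 38.0] against 32.3 CPM [26.8 to 38.4]. The ribosomal share of that cluster was 33.4%, and 79 of 79 ribosomal protein genes were above 0. Of 7193 genes 62 (0.862%) were at least 1.5-fold higher in cluster 1 and 1026 (14.3%) lower, with a median of -0.28. Higher genes made up 5.70% of the calls, and 45.3% with the median gene ratio set to 1. Of 17 effector and cytotoxic genes 10 were lower and 1 (*Ifng*) higher. The gamma delta, NK and innate-like genes summed to 33.8 CPM in cluster 1 and 307 CPM in 12W spleen cluster 2. The 7 of them that were tested were all lower. Each had passed the filter of 10 CPM only through the 12W cluster, so this count was nearly fixed in advance. *Fcer1g*, an Fc receptor chain used by innate-like T cells, was at 3.83 against 64.8 CPM. The 5 highest genes with at least 50 CPM were *Fos*, *Socs3*, *Dusp1*, *Klf6* and *Zfp36*. *Fos*, an immediate-early transcription factor, was at 404 CPM against 91.6 CPM, *Dusp1* at 140 against 53.2 CPM, *Klf6* at 252 against 99.6 CPM and *Zfp36* at 426 against 175 CPM. In the immediate-early and NF-kB list 8 of 26 genes were higher and 1 lower, among the IL-7 receptor signalling genes 3 of 16 were higher and 0 lower, and among the ribosomal protein genes 6 of 79 were higher and 0 lower.

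Beside 28W kidney cluster 5, *Il7r* was at 638 CPM [615 to 662] in spleen and 623.5 CPM [591 to 658] in kidney, a ratio of 1.02 [0.959 to 1.09]. Of 6876 genes 237 (3.45%) were at least 1.5-fold higher in cluster 1 and 452 (6.57%) lower, with a median of -0.06. Higher genes made up 34.4% of the calls, 48.3% with the median gene ratio set to 1 and 51.8% with the reduced total. Of 14 tested chemokine and egress receptors and their regulators 5 were higher in the spleen cluster and 3 lower, with a median of 0.34. *Dtx1*, outside that list, was at 171 against 36.1 CPM, *Klf2* at 1518 CPM [1482 to 1555] against 609.6 CPM [577 to 644], *Ccr7* at 174 against 88.0 CPM, and *S1pr1*, the receptor for exit from lymphoid tissue, at 118 against 78.7 CPM. Of 16 naive and memory genes 8 were higher and 0 lower (median 0.68). *Rasgrp2* and *Cd7* were, with *Dtx1* and *Klf2*, among the 5 highest genes.

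Of 11 tested heat shock genes 3 were at least 1.5-fold lower in cluster 1 than in the kidney cluster and 0 higher, with a median of -0.33. *Hspa1a*, a heat shock protein that tissue handling can induce, was at 38.8 against 1121 CPM and *Hspa1b* at 42.1 against 529 CPM. The near identity of the pair leaves their split uncertain. *Xcl1*, a chemokine, was at 30.0 against 181 CPM, *Ccl4*, a chemokine of activated T cells, at 46.6 against 232 CPM, and *Cxcl10*, an interferon-induced chemokine, at 6.54 against 52.3 CPM. *Cxcr6*, a receptor of tissue-resident cells, was at 36.7 against 172 CPM, and *Pdcd1* at 23.0 against 69.4 CPM. Of 19 interferon-stimulated genes 11 were at least 1.5-fold lower and 0 higher, *Isg15* being at 118 against 275 CPM. Beside the kidney cluster 6.57% of all genes tested were lower. The digestion that the kidney alone received moves with the organ, and its part in the heat shock and immediate-early values was not tested. The ribosomal share was 42.3% against 39.0%, with 68 of 79 genes above 0 (median 0.11).

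**Figure D5:**
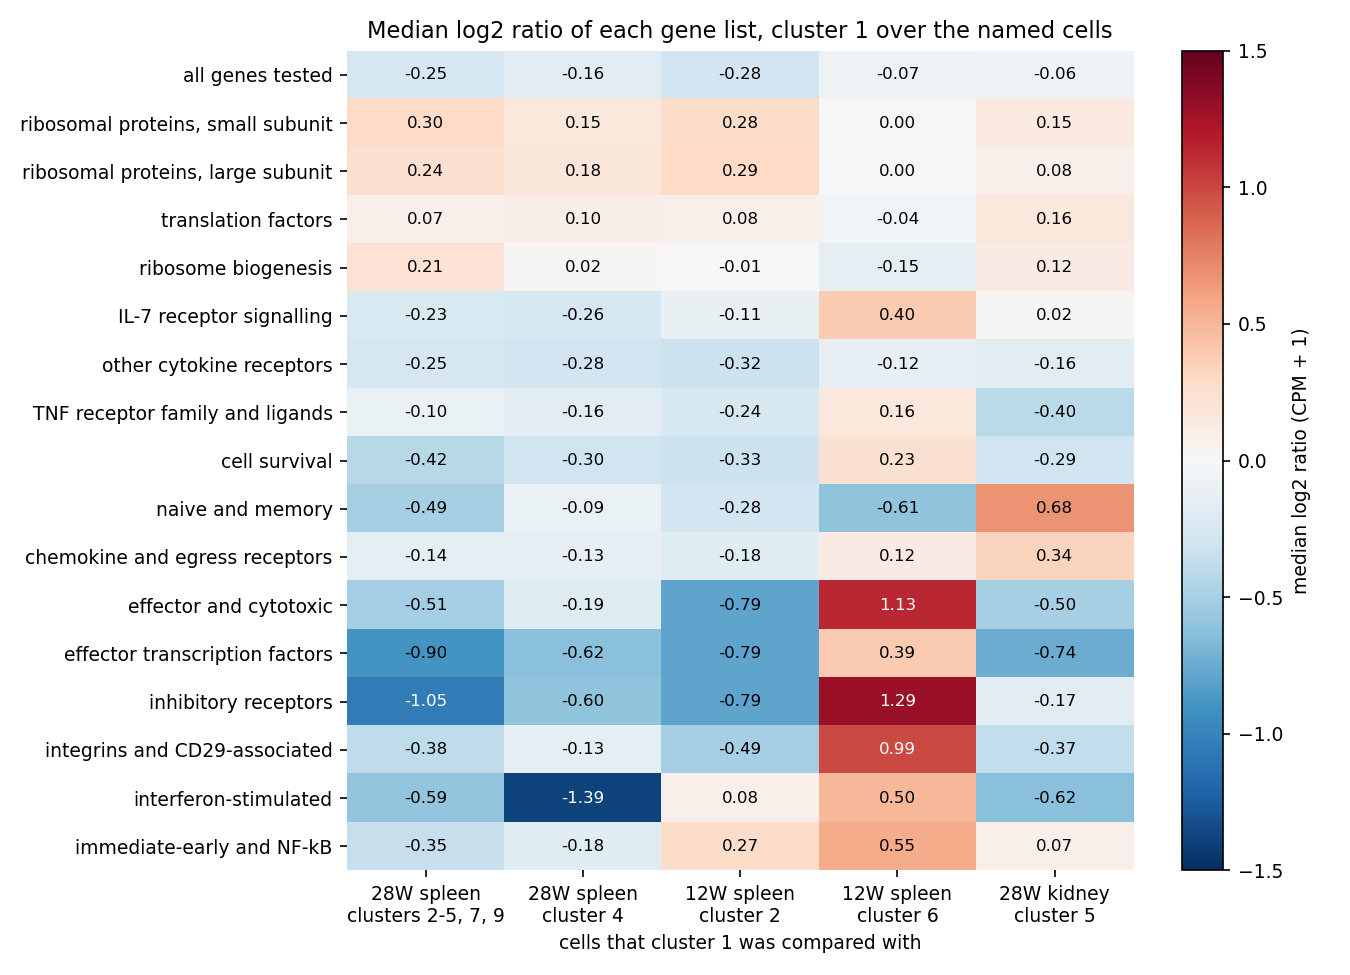
Median log2 ratio (CPM + 1) of each gene list, cluster 1 over 5 groups of cells, with the median of all genes tested in the first row. Interferon-stimulated genes reach -1.39 against 28W spleen cluster 4, inhibitory receptors -1.05 against the other 28W spleen T cell clusters and 1.29 against 12W spleen cluster 6, and ribosomal protein genes lie between -0.0043 and 0.30.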

How the data were processed

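Sorted PD-1+ CD44+ cells of the CD8 lineage were sequenced as 10x Genomics 5′ libraries. Per the labels, Cell Ranger 2.1.1 and R 3.6.1 were used with GRCm38, and the methods name a later vdj pipeline. The annotation release and the cell filters are not given in the sources used here. The authors deposited, per library, a cluster number for every barcode and a table of mean UMI counts, with genes in rows and clusters in columns. These mean counts are normalized, as each column sums to the library's median UMIs per cell (4128 in 28W spleen), and dividing by the smallest value gave whole UMIs for 100% of values within 0.001. The deposited log2 fold changes and adjusted p-values of the authors' own comparisons were not used. Library totals ran from 29937384 UMIs (28W kidney) over 32023473 (28W spleen) to 34742303 (12W spleen).

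UMIs were summed over clusters, expressed as CPM and compared as log2(CPM + 1), which understates changes of low genes. A gene was tested at 10 CPM or more in either side, outside V, D and J segments, and called at 1.5-fold. The 3 tables were normalized separately, so levels set across libraries rest on CPM. Intervals are exact Poisson (levels), exact Clopper-Pearson (shares) and exact conditional binomial (folds), at 95%, for counting error only. A cluster was set apart when the summed level of B cell, myeloid, neutrophil granule, red cell or kidney tubule genes passed 5 times the median over clusters and 200 CPM, or its mitochondrial share 1.5 times the median.

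Named genes are the markers, up to 6 genes of each list by the size of the ratio or a stated role, the 15 highest and 15 lowest ratios to the rest at 50 CPM or more, the 5 highest and 5 lowest ribosomal protein genes, 5 in each direction against the nearest cluster of each other library, and the 3 most used Trbv and Trav segments. The comparisons with cluster 4, with 12W spleen cluster 2 and with clusters 2, 3, 4, 5, 7 and 9 were added after the values were seen, as were the genes named from them outside the rule. Some genes that the rule names are not reported here. The members and lists were chosen with earlier results of these data known. No per-cell matrix was used, so no doublet caller was run and no test across samples could be made. Steps were tested on simulated data. Python 3.11.15, numpy 2.4.6, scipy 1.17.1, pandas 2.3.3 and matplotlib 3.10.9 were used.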

Additional observations from a re-analysis of the deposited data

How the results depend on the processing

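Without the clusters set apart, cluster 1 held 18.8% of cells. The ribosomal share difference was 3.77 points for large and 4.54 for small subunit genes, 7.84 without the clusters set apart and 7.46 without the dividing cluster 6 too (chosen after seeing the data), against 8.32 points. The counts against the rest, 30 higher and 1016 lower, became 10 and 422 with a pseudocount of 10 CPM, 113 and 2462 with no filter, 9 and 248 at a minimum of 50 CPM, 103 and 530 with the reduced total, 175 and 378 with the median gene ratio set to 1, and 37 and 1809 with the unweighted mean of the other clusters. The *Il7r* log2 ratio of 1.08 was 1.27 with the reduced total, 1.35 with median scaling, 0.98 with the unweighted mean and 0.72 without cluster 6 and the clusters set apart. Against 12W spleen cluster 6 (414 and 502), the counts were 208 and 168 with a pseudocount of 10 CPM, 1291 and 1677 with no filter, 101 and 81 at 50 CPM, and 62 and 1026 when the nearest cluster was taken by log2 CPM or by *Il7r*, which gives cluster 2. Against 28W kidney cluster 5 (237 and 452), they were 67 and 152, 849 and 1376, and 39 and 86 in the same order of settings, and 365 higher with the reduced total. Fewer genes tested or a larger pseudocount lower a count by construction, and for the nearest cluster the cells differ. *Hbb-bs*, *Hba-a1* and *Hbb-bt* turned to 0.59, 0.58 and 0.29 without the clusters set apart, which held their UMIs, and to 0.31, 0.40 and 0.030 without cluster 6 too, where *Pclaf* turned to 0.12. The myeloid list's median turned to 0.0068 without the clusters set apart. No paired analysis was possible because each group is 1 pooled library, and for the same reason no replicate could be left out. Depth limits levels in clusters 8 to 11, with 276894 to 691759 UMIs.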

Other observations

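T cell receptor V segments showed no dominant segment in cluster 1. *Trbv13-2* made up 19.1% of its 6524 Trbv UMIs [18.2 to 20.1] against 19.0% in the other clusters, *Trbv13-1* 19.1% against 22.3%, and *Trbv1* 15.1% [14.2 to 16.0] against 12.8%. Reads of *Trbv13-1* and *Trbv13-2* can be split between near copies. Among Trav segments, *Trav3-3* was at 7.57% [6.68 to 8.55] against 10.3%, *Trav13-1* at 5.27% against 4.47% and *Trav2* at 4.99% [4.26 to 5.80] against 2.54%. The effective number of segments, the inverse of the summed squared shares, was 8.18 for Trbv and 34.7 for Trav, against 7.81 and 33.2 in the other clusters pooled. UMIs differ between cells, so these shares are not shares of cells or clones.

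Of 13 tested glycolysis genes 5 were at least 1.5-fold lower than in the rest and 0 higher, where 14.1% of all genes were lower, and against clusters 2, 3, 4, 5, 7 and 9 the count was 0 in each direction (median -0.21). *Hspa1a* (log2 ratio 0.75) and *Hspa1b* (0.67) were the 2 of 11 heat shock genes that were higher than in the rest, where 0.416% of all genes were higher, and cluster 4 was above cluster 1 for both, with *Hspa1a* at 46.6 against 38.8 CPM. All 13 mitochondrial genes had log2 ratios below 0 against the rest, with a median of -0.33, close to that of all genes.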
